A study of Homo sapiens with 23 samples.

Results

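The data described here are the H3K9me3 ChIP-seq peak lists of SCi-NCCITs with against without doxycycline, taken over the whole genome and not only at SVA transposable elements. All peaks on chromosomes 1 to 22 and X of 4 libraries were used, 2 with doxycycline and 2 without, which gave 626227 peaks of the 1185047 peaks in the 11 ChIP-seq lists of the series on the same chromosomes. NCCIT is a human embryonal carcinoma cell line with features of pluripotent cells. SCi-NCCITs are NCCITs that carry a tetracycline-inducible dCas9-KRAB cassette and a cassette that expresses 2 sgRNAs constitutively, both inserted as piggyBac transposons and kept under puromycin and geneticin in medium with tet-free serum. The doxycycline group received 2 ug/mL doxycycline for 72 hours, and the no doxycycline group is the same line with the same cassettes and no inducer. No cells that received doxycycline without the sgRNAs or without dCas9-KRAB were profiled, so the action of doxycycline itself and that of the induced dCas9-KRAB cannot be told apart. The parental NCCITs have 1 H3K9me3 library, used below as a reference with no test.

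H3K9me3, trimethylation of lysine 9 on histone H3, marks heterochromatin and most silenced transposable elements. The KRAB domain recruits TRIM28, which brings the methyltransferase SETDB1 to the bound DNA, and the resulting mark is read by HP1 proteins. A dCas9-KRAB fusion uses this route at sites chosen by the guide. SVAs are hominoid-specific composite retrotransposons present in many copies, so a guide against a shared stretch has sites on every chromosome. The authors state that both sgRNAs were first designed against a sequence found in SVAs and in LTR5Hs, another family of transposable elements. The guide sites below were not sorted by element, so a site need not lie in an SVA. In normal cells broad H3K9me3 domains also cover KRAB zinc-finger gene clusters.

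The guides are shown because the strongest regions that appeared with doxycycline held their sites. Each is given as its target on hg19 in an SVA on chromosome 17, read 5′ to 3′, with the PAM in capitals. The sgRNA1 target lies at chr17:56286194-56286216 on the minus strand and the sgRNA2 target at chr17:56286318-56286340 on the plus strand.
sgRNA1: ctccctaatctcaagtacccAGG
sgRNA2: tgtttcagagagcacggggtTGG
Searching hg19 for either target with up to 3 mismatches before an NGG PAM found 1996 exact sites for sgRNA1 and 525 for sgRNA2. A further 1817 sites differed from sgRNA2 by 1 base. Sites less than 2000 bp apart were joined, which left 3114 guide loci.

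In 3 of the 10 strongest regions that appeared with doxycycline, the best sgRNA1 site carried 1 mismatch, shown here in capitals. The substitutions count from position 1 at the guide's 5′ end, with the guide's base first.
Beside RIPK1, A7C: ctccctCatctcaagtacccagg
In ST6GALNAC1, A17T: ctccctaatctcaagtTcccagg
Beside AK4, C1T: Ttccctaatctcaagtacccagg
Each of these regions also held an exact sgRNA2 site.

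The RNA libraries of the same line, 3 with and 3 without doxycycline, were checked against markers of embryonal carcinoma and of other cells. The estimated counts scaled to library size (CPM) gave POU5F1, the gene of OCT4, at up to 240 CPM, SOX2 at 492 to 673 CPM and LIN28A at 732 to 834 CPM. Over all 16371 genes tested in edgeR, 8.48% were lower and 8.97% higher with doxycycline. Of the 12 embryonal carcinoma markers 6 were lower with doxycycline and 0 higher in edgeR (median log2 fold change -0.26). TDGF1, a NODAL co-receptor gene, had the largest decrease, from 201, 186 and 191 CPM to 95.7, 86.9 and 83.0 CPM (adjusted p = 8.3e-06, edgeR), and the others were L1TD1, ZSCAN10, DNMT3B, ZFP42 and SALL4. Of 9 measured markers of other cells, SOX17, AFP, TBXT and PTPRC were at 0.313 CPM or less and did not pass the filter on low counts. GATA6, an endoderm factor, was higher with doxycycline, at 2.66, 2.72 and 2.44 CPM against 1.16, 0.658 and 1.06 (log2 fold change 1.46, adjusted p = 0.0019, edgeR). GATA4, PAX6 and CDX2 stood at 1.36 CPM or less and COL1A1, a collagen gene, at 14.6 to 21.1 CPM, and none of these 4 was called. The part of these marker shifts in the results below was not tested. ZNF10, the gene from which the KRAB domain of such fusions is usually taken, measured 10.0, 11.8 and 10.7 CPM without doxycycline and 362, 374 and 459 CPM with it, a log2 fold change of 5.19 ± 0.12 (SE; edgeR quasi-likelihood test, Benjamini-Hochberg adjusted p = 5.6e-08). Reads of the fusion's KRAB domain and of the endogenous gene cannot be told apart in these counts.

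The first comparison asks whether the total amount of called H3K9me3 differed. The doxycycline libraries held 122274 and 172681 peaks and the no doxycycline libraries 150729 and 180543. The first doxycycline library had the fewest peaks of the 4, and the group ranges overlapped. The means were 147478 ± 35643 (SD, n = 2) with doxycycline and 165636 ± 21082 without, an exact two-sided permutation p of 0.67. Peaks covered 116.6 and 175.3 Mb with doxycycline and 181.1 and 181.8 Mb without. The second doxycycline library was close to both libraries without the inducer, at 5.77% of the genome against 5.97% and 5.99%, while the first covered 3.84%. Covered bases were lower in both doxycycline libraries (145.9 ± 41.5 against 181.5 ± 0.495 Mb), with an exact permutation p of 0.33, the smallest that 2 libraries against 2 can give. No comparison of single values between these groups could reach 0.05 in that test.

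Median peak width was 577 and 595 bp with doxycycline and 687 and 585 bp without, so the groups overlapped (exact permutation p = 0.67). The share of peaks of 2000 bp or wider was 10.4% and 11.6% with doxycycline and 15.7% and 11.6% without. The wide peaks of the first no doxycycline library set it apart from the other 3. The longest single peak spanned 88046 and 132055 bp with doxycycline and 162746 and 162799 bp without. Median fold enrichment, read here as the height of a peak's summit over the caller's local background, was 4.77, 4.4, 4.37 and 4.35 in the order given. The shortest peak was 299 and 297 bp in both replicate 1 libraries and 279 and 276 bp in both replicate 2 libraries. The parental NCCIT list held 156378 peaks over 136.3 Mb. The read depth behind each list is unknown, and its part in these totals was not tested.

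Replicate lists overlapped in part. Of the peaks of the first doxycycline library, 82.3% met a peak of the second by at least 1 bp, and 52.0% of the second met the first. Without doxycycline these shares were 76.2% and 70.1%. In bases, the doxycycline replicates shared 92.12 Mb, 46.1% of their union, and the no doxycycline replicates 133.0 Mb, 57.8%. Across treatments, the replicate 1 pair shared 51.2% of its union and the replicate 2 pair 61.8%. The crossed pairs shared 44.7% (the first doxycycline and the second no doxycycline library) and 55.1%. For 3 of the 4 libraries the partner of the same replicate number shared more of the union than the partner of the same treatment, the first no doxycycline library being the exception.

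The peaks of all 4 libraries merged into 202047 regions. A peak in every library was present at 61226 of them (30.3%). A region was called gained when both doxycycline libraries and neither no doxycycline library had a peak there, and lost in the reverse case. There were 1712 gained regions, 0.847% of all, and 7878 lost regions, 3.9% of all. Regions present in both replicate 2 libraries alone numbered 17312, and those in both replicate 1 libraries alone 4828. The lost count lay between these 2 numbers, and the gained count was below both. The replicate 1 regions had a median GC content of 49.4% and the replicate 2 regions 38.0%, against 40.6% over all regions. The first doxycycline library had the shortest list, so a region needed to be absent from a short list to count as lost. With every list shortened by p-value to 122274 peaks, 2193 regions were gained and 5120 lost.

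Gained and lost regions differed in strength and in guide sites. Taking the weaker of both libraries that carried the peak, the median fold enrichment was 3.8 for gained and 3.42 for lost regions, and the highest was 15.2 and 7.0. At a fold of at least 5 in both libraries there were 301 gained and 88 lost regions, at 6 there were 215 and 7, and at 8 there were 113 and 0. A guide site lay inside 295 gained regions (17.2%, Wilson 95% interval 15.5 to 19.1) and inside 1 lost region (0.0127%, 0.00224 to 0.0719). Over all regions the share was 1.31%. The intervals cover counting error only.

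The stronger a gained region, the more often it held a guide site. The share was 42.8% at a fold of at least 4, 70.8% at 5, 80.5% at 6 and 87.6% at 8, and all 42 gained regions at 10 or above held a site. None of the 1296 lost regions at a fold of at least 4 did. Gained regions with a guide site had a median width of 2485 bp, against 587 bp for those without a site and 627 bp for lost regions. They reached a median of 1586 bp beyond the outermost guide site on the longer side, and at most 5665 bp. Only 5 of the 295 (1.69%) met a peak of the parental NCCITs, compared with 21.7% of gained regions without a site, 38.8% of lost regions and 89.6% of regions present in all 4 libraries. Gained regions were chosen for lacking peaks without doxycycline, and the last 2 sets for having them, so those contrasts depend on the rule. Gained regions with and without a site passed the same rule but differed in strength and width. The part of this in their contrast was not tested.

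The 10 strongest gained regions each held at least 1 guide site with 2 mismatches or fewer, and none met a parental NCCIT peak. The first, chr3:188968401-188970583 in an intron of TPRG1, measured 16.3 and 15.2 fold in the doxycycline libraries and had no peak without doxycycline. The second, chr6:2905007-2911561, lay 1464 bp from the TSS of SERPINB9, a serine protease inhibitor that blocks granzyme B, with 14.9 and 17.6 fold. The third, chr6:3054007-3056500, was 7557 bp from the TSS of RIPK1, a kinase of the TNF receptor pathway, with 14.4 and 16.9 fold. A region over an exon of ST6GALNAC1, a sialyltransferase gene, at chr17:74630253-74635546 measured 15.6 and 14.3 fold. Next came a region in FHAD1 at chr1:15704001-15709045, with 14.7 and 14.1 fold.

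The remaining 5 of these regions measured between 12.0 and 17.0 fold. They were chr1:65602788-65608150, which was 5081 bp from the TSS of the adenylate kinase gene AK4, and chr11:71477009-71481351 in the pseudogene ALG1L9P. Others were chr2:130717433-130722525 beside RAB6C and chr6:44294063-44299604, 10782 bp from the TSS of SPATS1. The last, chr5:74902394-74905638, overlapped an exon of POLK, the gene of DNA polymerase kappa, and was 1368 bp from the TSS of ANKDD1B. All 10 stood in both doxycycline libraries at a height above the strongest lost region.

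Gained regions without a guide site numbered 1417 and were weaker, with a median of 3.52 fold. The 3 strongest, chosen after their values were seen, stood at chr12:42039640-42043730 (9.86 and 10.1 fold), chr12:122150922-122153761 (13.0 and 9.68 fold) and chr15:63372373-63378418 (11.3 and 9.57 fold). The nearest guide site was 579196, 79023 and 13272 bp away. The second of them lay 264 bp from the TSS of TMEM120B. Ranked after these were chr8:48088016-48092872 (8.67 and 10.6 fold) and chr8:54940395-54944467 (8.67 and 12.0 fold). Their nearest guide sites were 37882 and 472 bp away.

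Short of a site inside the region, gained regions were more frequent the closer a site lay. Among regions with a guide site inside, 11.1% were gained and 0.0378% lost. Among regions whose nearest site was less than 2000 bp away, 11.4% were gained and 0.529% lost. From 2000 to 5000 bp these shares were 3.53% and 2.07%, and from 5000 to 10000 bp 1.15% and 2.86%. Beyond 50000 bp they were 0.559% and 4.05%. The gained share therefore exceeded the lost share within 5000 bp of a guide site and was below it beyond.

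The same comparison was made from the side of the guides. A peak met 80.5% and 74.9% of the 3114 guide loci with doxycycline and 55.9% and 33.8% without, so the groups did not overlap. The means were 77.7 ± 4.02% and 44.85 ± 15.7% (SD, n = 2), with an exact permutation p of 0.33, the smallest possible. The difference between the means was 32.9 percentage points. It was 15.5 points when a peak within 1000 bp of the locus was also counted, so part of it lay at loci with a peak nearby. In the parental NCCITs 21.5% of the loci met a peak. Both doxycycline libraries and neither no doxycycline library had a peak at 655 loci (21%), the reverse held at 7, and all 4 had one at 945 (30.3%).

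The difference ran with the number of mismatches. At the 2103 loci with an exact match, a peak was present at 90.5% and 86.3% with doxycycline and at 62.0% and 38.5% without. Where the best match had 1 mismatch, the shares were 71.9% and 60.3% against 48.7% and 26.0%. Where it had 2 mismatches, the groups overlapped, at 38.4% and 38.4% against 42.0% and 31.2%, and where it had 3 the shares were 2.48% and 4.13% against 9.92% and 3.31%. Loci with sites of both guides carried a peak at 87.5% and 80.5% with doxycycline, compared with 43.7% and 48.0% for loci with sgRNA1 sites alone and 44.7% and 42.6% for sgRNA2 alone. Loci with both were also the higher without doxycycline in the first library, at 59.5% against 34.6% and 39.8%, and in the second, at 35.5% against 24.8% and 24.2%.

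The 1249 loci with no parental NCCIT peak within 1000 bp showed the wider separation. There the share with a peak was 62.4% and 58.1% with doxycycline and 15.8% and 4.4% without. At the 1865 loci with a parental peak nearby the shares were 92.7% and 86.1% against 82.8% and 53.4%. Around the first set, coverage at the middle of the locus was 54.6% and 48.5% with doxycycline and 12.2% and 3.44% without, and at 2000 bp to the right it was 21.9% and 28.2% against 15% and 12.2%. At 5000 bp to the right all 4 libraries lay between 6.65% and 11%, with the groups overlapping. At these 1249 loci the groups were thus apart at 2000 bp from the guides and no longer at 5000 bp. These loci were chosen for lacking a peak in parental cells, which bears on the values without doxycycline. At the 1865 loci with a parental peak nearby the groups overlapped at 2000 bp to the right. Coverage there was 44.3% and 54.9% with doxycycline and 46.6% and 43.1% without.

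Peak height could be compared at the 61226 regions with a peak in all 4 libraries. The median of the highest fold enrichment per region was 5.45 and 5.87 with doxycycline and 6.36 and 6.37 without, and values were centred to remove this. In limma, fitted without the replicate numbers, no region passed an adjusted p of 0.05 in either direction (0.0% higher and 0.0% lower). At an unadjusted p under 0.05, fewer regions passed than the share of 0.05 expected by chance. Of the 61226, 764 were higher and 197 lower with doxycycline. This balance depended on the centring, since uncentred values gave 280 higher and 1033 lower, and without the first doxycycline library the counts were 601 and 718. For the 2115 of these regions with a guide site, the median log2 difference of centred values was 0.36, and 87.4% lay above 0. For the 59111 without a site the median was 0.02 and 52.3% lay above 0. Of the 764 regions higher at an unadjusted p under 0.05, 228 held a guide site, whereas none of the 197 lower ones did. In uncentred values 158 of the 280 higher and none of the 1033 lower regions held a site. The median difference at the regions with a site changed sign with the library left out. It was -0.06 without the first doxycycline library and -0.13 without the second no doxycycline library. Leaving out the second doxycycline or the first no doxycycline library gave 0.85 and 0.88. Each such fit holds the replicate numbers in unequal shares between the groups. The medians at the regions with a site were 14.5 and 8.26 fold with doxycycline and 13.4 and 6.52 fold without. Library replicate 1 was thus the higher in each group, and within each replicate number the doxycycline library was the higher. Regions of 10000 bp or wider, 959 in number, had a median difference of -0.01.

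By chromosome, lost regions outnumbered gained ones on all 23. The gained share of regions ran from 0.645% on chromosome 21 to 1.69% on chromosome 17, followed by 1.44% on chromosome 16 and 1.27% on chromosome 19. The lost share ran from 2.68% on chromosome 19 to 5.05% on X. Chromosome 19, which is rich in zinc-finger gene clusters, had the highest density of gained regions, at 1.03 per Mb, and of guide loci, at 2.94 per Mb. Chromosome 17 came second in both, at 0.788 and 1.64 per Mb, and 32.8% of its gained regions held a guide site, compared with 10.0% on X. On chromosome 22, 7 of 17 gained regions held one.

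Peak numbers moved alike over the genome, with 1 exception. In replicate 1 the ratio of peaks with to without doxycycline lay between 0.724 on chromosome 4 and 0.893 on chromosome 22 apart from chromosome 19, where it was 1.14 (5674 against 4984 peaks). In replicate 2 the ratio on chromosome 19 was 1.01 (4864 against 4828) and the others lay between 0.885 on chromosome 18 and 1.0. Peaks covered 11.4% and 12.0% of chromosome 19 with doxycycline and 15% and 11.3% without, so its covered share overlapped between groups.

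Gene annotation separated gained regions with a guide site from the rest. Within 1000 bp of a TSS lay 119 of 1712 gained regions (6.95%, Wilson 95% interval 5.84 to 8.25) and 267 of 7878 lost regions (3.39%, 3.01 to 3.81), beside 4.59% of all regions. For the 295 gained regions with a guide site the share was 15.9% (12.2 to 20.5), and for those without a site 5.08% (4.05 to 6.35). A further 16.3% of gained regions with a site overlapped an exon, 35.3% an intron alone and 32.5% no gene. Lost regions were intergenic in 49.4% of cases, gained regions in 38.3%. Regions present in all 4 libraries, with a median width of 2160 bp against 2485 bp for gained regions with a site, lay at a TSS in 6.31% of cases and at an exon in 7.6%. For the gained regions with a site, the median GC content was 45.0%, against 41.5% for gained regions without a site and 41.6% for lost ones.

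Zinc-finger genes, whose bodies commonly carry H3K9me3, mostly kept a peak in every library. Of 516 protein-coding genes with a ZNF symbol, 377 (73.1%) overlapped a region present in all 4 libraries, 20 a gained region and 43 a lost one. Other genes were not counted in this way, so these counts cannot be called particular to ZNF genes. Gained regions fell in a ZNF gene in 1.4% of cases and lost regions in 0.647%, next to 1.23% of all regions. For regions present in all 4 libraries the share was 1.7%. It was 0.339% for gained regions with a guide site.

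The 5 strongest lost regions were low beside the gained ones. They were chr1:227396017-227397109 in CDC42BPA, a kinase gene, with 7.0 and 8.07 fold without doxycycline, chr4:100310567-100311482 beside ADH1C, an alcohol dehydrogenase gene, with 6.68 and 6.83 fold, and chr16:51363602-51365868, with 6.68 and 7.14 fold. The others were chr22:48034084-48034893 in EPIC1 and chr6:156498422-156499659 in an intron of ENSG00000287092, 597494 bp from the TSS of ARID1B. Both measured between 6.06 and 7.14 fold. None held a guide site, and 4 of the 5 met a peak of the parental NCCITs.

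YY1 and OCT4 are transcription factors whose binding was measured by ChIP-seq in the same line. A YY1 peak met 135 and 155 of the 295 gained regions with a guide site with doxycycline (45.8% and 52.5%) and 173 and 195 without (58.6% and 66.1%), so the groups did not overlap. The means were 145.0 ± 14.1 and 184.0 ± 15.6 (SD, n = 2; exact permutation p = 0.33). This ran against the list sizes, since the YY1 lists were longer with doxycycline (81626 and 115312 peaks) than without (56068 and 75820). Over all H3K9me3 regions the share with a YY1 peak was 6.14% and 8.78% with doxycycline and 4.54% and 5.94% without, so there the doxycycline libraries were the higher. At all gained regions the counts were 177 and 234 against 222 and 273, which overlap (exact permutation p = 0.67). At lost regions they were 314 and 453 against 239 and 322.

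OCT4 has 1 library per condition and therefore no test. An OCT4 peak met 39 of the gained regions with a guide site with doxycycline (13.2%) and 159 without (53.9%). Over all H3K9me3 regions the counts were 2957 and 6126, and the OCT4 lists held 23066 and 50550 peaks. Of the 10 strongest gained regions, 9 met an OCT4 peak without doxycycline and 1, the region beside RIPK1, met one with it. YY1 peaks at these 10 regions overlapped between the groups. The second YY1 library with doxycycline had a peak at all 10, which neither library without it had. The first YY1 library with doxycycline had a peak at fewer of them than either library without.

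RNA of genes at gained regions was compared with the RNA of all genes tested. In edgeR, 8.97% of the 16371 genes tested were higher with doxycycline and 8.48% lower. Of 144 genes with a gained region within 1000 bp of the TSS, 42 passed the filter on low counts, and of these 2 were higher and 13 lower, with a median log2 fold change of -0.2 against 0 over all genes. The genes at gained regions with a guide site accounted for 12 of the 13, out of 21 that passed, and their median was -0.5 with none higher. The 21 genes at gained regions without a site had 2 higher, 1 lower and a median of -0.05. Of 144 tested genes whose body or edge met a gained region with a guide site, 59 were lower (41.0%) and 5 higher, with a median of -0.27. Genes that met a gained region without a site also had more decreases than increases, with 78 of 516 lower (15.1%) and 22 higher, as did genes that met a lost region, with 151 of 1349 lower (11.2%) and 53 higher. The median was -0.08 in both. In bulk RNA, fewer cells that express a gene and less RNA per cell cannot be told apart.

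The largest decrease at a TSS was in ANKDD1B, an ankyrin-repeat gene, which measured 3.95, 3.91 and 3.81 CPM without doxycycline and 0.778, 0.775 and 0.51 with it. The log2 fold change was -2.49 ± 0.19 (SE, adjusted p = 4.2e-05, edgeR), and its TSS lay inside a region of 5.93 and 7.31 fold. The guide site nearest to this TSS, 45 bp away, had 2 mismatches. An exact sgRNA2 site lay in the separate gained region chr5:74902394-74905638. PRODH, proline dehydrogenase, measured 143, 149 and 114 CPM without doxycycline and 35.4, 31.3 and 36.4 with it. Its log2 fold change was -1.98 ± 0.1 (adjusted p = 4.4e-06, edgeR), and the gained region over its TSS, chr22:18923922-18926434, reached 11 and 10.1 fold. For DERA, a deoxyribose-phosphate aldolase, the values were 96.5, 88.7 and 93.0 CPM against 47.9, 48.0 and 48.1, a log2 fold change of -0.95 ± 0.05 (adjusted p = 6.2e-06, edgeR). In none of these genes did the groups overlap, which naming called genes by their large changes makes likely.

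The genes in or nearest to the 10 strongest gained regions were read in the same fit. Of 17 such genes 9 passed the filter, and 5 were lower and 0 higher. SERPINB9 measured 224, 250 and 225 CPM without doxycycline and 79.8, 78.6 and 80.4 with it, a log2 fold change of -1.55 ± 0.06 (SE, adjusted p = 8.5e-07, edgeR). ST6GALNAC1 was low throughout, at 0.886, 1.1 and 0.697 CPM against 0.0889, 0.105 and 0.106, a log2 fold change of -3.11 (adjusted p = 0.00043, edgeR). FHAD1 and AK4 had log2 fold changes of -0.7 (adjusted p = 0.017, edgeR) and -0.35 (adjusted p = 0.011), and ANKDD1B was the fifth. RIPK1, with 36.2, 40.6 and 37.2 CPM against 43.8, 43.3 and 42.9, did not pass (adjusted p = 0.06, edgeR), nor did TPRG1, whose TSS lay 303398 bp from the region, POLK and EFHD2. Of 8 genes in or nearest to the 5 strongest lost regions 4 passed the filter, and none was called (adjusted p of 0.14 to 0.94, edgeR).

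Further decreases were found in genes that held a gained region with a guide site away from the TSS, named here after their values were seen. ABCC2, a transporter of organic anions into bile, measured 2.45, 2.3 and 1.74 CPM without doxycycline and 0.2, 0.105 and 0.213 with it (log2 fold change -3.61, adjusted p = 7.3e-05, edgeR). MMP24, a membrane-type metalloproteinase, measured 38.8, 39.0 and 31.7 CPM against 9.53, 7.26 and 6.93 (log2 fold change -2.2, adjusted p = 1.1e-05, edgeR). ENSG00000283809, which overlaps DGCR6 on the same strand and PRODH on the opposite one, measured 1435, 1503 and 1330 CPM against 281, 267 and 248 (log2 fold change -2.42, adjusted p = 1.6e-07, edgeR), and its reads may be shared with those genes. The pseudogene PDCL3P4 measured 0.886, 1.39 and 1.37 CPM against 0.222, 0.461 and 0.0851 (log2 fold change -2.27, adjusted p = 0.009, edgeR). In these 4 genes every library with doxycycline was below every library without it, which choosing the largest called decreases makes likely.

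The region chr12:6993195-6999709, of 13.1 and 8.44 fold, lay over the TSS of both SPSB2, a SOCS-box gene, and the lncRNA DSTNP2. SPSB2 fell by 0.9 on the log2 scale and DSTNP2 by 1.0. NFKB2, a subunit of NF-kB, went from 55.5, 50.1 and 52.7 CPM to 37.2, 33.0 and 33.1 CPM, with its gained region 356 bp from the TSS. NLRP2, a gene of the NLR family, measured 151, 154 and 117 CPM without and 91.7, 109 and 98.0 CPM with doxycycline (log2 fold change -0.5, adjusted p = 0.013, edgeR). The pseudogene PRORSD1P, the zinc-finger genes ZNF517 and ZNF696, LRIG2 and the lncRNA ENSG00000291055 also fell, by 0.39 to 0.93 on the log2 scale. All of these had a guide site in the gained region.

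The 3 called genes at a gained region without a site had weak regions. PPP1R3B, a glycogen-targeting subunit of protein phosphatase 1, fell by 0.6 on the log2 scale and had its gained region (4.34 and 4.99 fold) 585 bp from the TSS, with a guide site 2009 bp from the TSS. GPC2, a glypican, rose by 0.65 and the lncRNA KRT10-AS1 by 0.49 on the log2 scale, and their regions measured 3.81 to 4.69 fold.

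Lost regions at a TSS had few measured genes. Of 285 such genes 21 passed the filter, and 2 were higher and 2 lower, with a median of -0.11. Each count was 9.52% of these genes, close to the 8.97% higher and 8.48% lower over all genes tested. LYPLA1, an acyl-protein thioesterase gene, fell by 0.91 on the log2 scale, from 202, 221 and 214 CPM to 113, 113 and 114 CPM (adjusted p = 1e-05, edgeR). Its lost region was weak, at 3.18 and 5.9 fold, and the gene body holds 2 guide sites, the best of them exact, in a region with peaks in all 4 libraries. COA3, an assembly factor of cytochrome c oxidase, rose by 0.31 and SPOCD1 by 0.43, whereas ENSG00000258417 fell by 0.44.

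**Figure D1:**
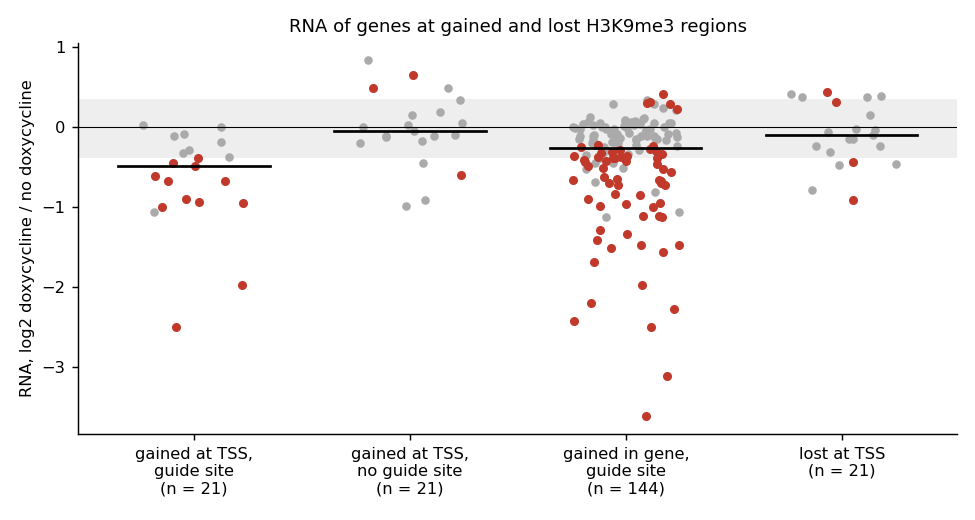
RNA log2 fold change, doxycycline over no doxycycline, of each tested gene at gained regions with (n = 21) and without (n = 21) a guide site at the TSS, in the gene (n = 144), and at lost regions (n = 21); red points have an adjusted p under 0.05, black bars are medians and the grey band holds the 10th to 90th percentile of all genes tested (-0.38 to 0.34). The medians are -0.5, -0.05, -0.27 and -0.11.

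The enzymes and readers of the mark itself were mostly below the threshold in RNA. All 24 members of a list of H3K9me3 writers, KRAB cofactors, readers, erasers and remodellers were tested, and 4 were lower (16.7%, beside 8.48% of all genes) and 0 higher in edgeR (median log2 fold change -0.1). KDM4C, a demethylase that removes the mark, measured 81.0, 78 and 75.1 CPM without and 50.9, 47.1 and 48.4 CPM with doxycycline (log2 fold change -0.68, adjusted p = 7.9e-05, edgeR). Its gene holds 6 guide sites in regions with peaks in all 4 libraries. MPHOSPH8, the HUSH subunit that binds H3K9me3, HELLS, a chromatin remodeller, and the demethylase KDM4A had log2 fold changes of -0.66, -0.25 and -0.24, and none of these 3 has a guide site in its body. SETDB1, the methyltransferase of the KRAB route, measured 137, 144 and 134 CPM without and 129, 130 and 128 CPM with doxycycline (adjusted p = 0.21, edgeR), and TRIM28 had an adjusted p of 0.52 (edgeR).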

How the data were processed

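The peak lists of H3K9me3, YY1 and OCT4 and the transcript counts of SCi-NCCITs were used. The authors trimmed adapters, aligned reads to hg19 with BWA MEM, kept mapping quality above 10, removed duplicates and called peaks in each library at 5% FDR, a filter that leaves out reads shared between near-identical SVA copies. The deposited peak lists give a fold enrichment (ratio), −log10 p and q values and the summit's offset, as written by the authors' peak caller, which is not given in the sources used here. RNA estimated counts were made by the authors with kallisto and deposited per transcript. Here they were summed per gene (GENCODE v44lift37), rounded, filtered with filterByExpr and tested with edgeR 4.0.16 (TMM), over totals of 14683302 to 47862233 counts. Fold enrichment was tested with limma 3.58.1. Single values were compared by exact permutation over libraries. Peaks on other chromosomes (0.428% to 0.602% of a list) were left out. Nothing says the replicates are separate cultures, so p-values measure only the spread between libraries. TSS windows were 1000 bp. Lists were merged at 1 bp of overlap. Named were the 10 strongest gained and 5 strongest lost regions, up to 15 and 5 called genes at a TSS by absolute log2 fold change, up to 5 called rises and falls in peak height (there were 0), ZNF10 and called members of the machinery list; markers and the 6 largest decreases in genes meeting a gained region with a site were added; genes in or nearest to the named regions were read in the same fit. The scripts were tested on simulated data. Members and lists were chosen with earlier results of these data known.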

Additional observations from a re-analysis of the deposited data

How the results depend on the processing

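Directions that kept their sign under every alternative run were those of covered bases, the share of guide loci with a peak, and the YY1 and OCT4 counts at gained regions. The difference in peak number (-18158 peaks) ran from -43362 to 7045 when each library was left out, turning positive without the first doxycycline library. The difference in median width (-50 bp) ran from -101 to 1 bp, turning positive without the first no doxycycline library. Gained regions numbered 801 at −log10 q of at least 5, 852 when regions up to 1000 bp apart were merged, 951 with peaks of at least 500 bp and 2193 with all lists shortened to equal length by p-value. Lost regions numbered 5120 at equal length and 4748 when merged. With 1 library left out the gained count ran from 3958 to 23823 and the lost count from 11269 to 34139, since fewer lists then had to match. The share of gained regions with a guide site was 14% with exact matches, 28.6% within 2000 bp of the region, 37.5% at the stricter q and 14.3% with equal list lengths. It ran from 1.36% without the first doxycycline library to 10.8% without the first no doxycycline library. The lost share was 0.127% within 2000 bp and at most 0.115% with a library left out. At a TSS of a protein-coding gene lay 1.81% of gained and 0.406% of lost regions, and within 2000 bp of any TSS 10.9% and 5.86%.

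The H3K9me3 libraries could be fitted with a replicate block, which gave 225 higher and 16 lower regions where limma without it gave 0 and 0, and 163 of the 225 held a guide site. The numbers are shared by 2 libraries of each group, the replicate 1 labels carry none, and deviations of same-numbered libraries correlated at 0.537. With a library left out, 0 to 9 regions were higher, the 9 without the second doxycycline library. For RNA the deviations of same-numbered libraries correlated at -0.001 to 0.128, so the numbers do not pair them, and the replicate block gave 14 lower genes at gained regions. Of genes at gained regions, DESeq2 called 1 higher and a window of 2000 bp 4 higher and 23 lower; with a library left out 1 to 2 were higher. At lost regions DESeq2 called 1 higher and 1 lower, no filter on low counts 1 lower, and the wider window 4 higher; leaving out a library gave 0 to 2 higher and 1 to 2 lower. Among 390 refits of the 39 named genes with a call, 348 kept their call and 42 lost it with the direction unchanged; these were in COA3, ENSG00000258417, FHAD1, HELLS, KDM4A, KRT10-AS1, NLRP2, PRORSD1P, SALL4, SPOCD1 and ZNF696. The cause of these shifts was not tested. The peak lists carry no read depth, so a missing peak says only that none was called.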
